A study of Mus musculus with 4 samples.

Results

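The genes described here are 10 mouse genes of methionine and one-carbon metabolism in embryonic stem (ES) cells: Bhmt, Bhmt2, Dmgdh, Mat2a, Mtr, Ahcy, Tdh, Gldc, Shmt2 and Mthfd2. They were grouped because Bhmt was selected on its measured signal, which is higher in both Nup98-HoxA9 clones than in parental ES cells. Every probe whose RefSeq transcript maps to one of them was read, which gave 15 of 55562 probes and 10 of 20257 named genes. Expression was measured by one-colour Agilent microarray in 4 lines, with 1 array per line: parental ES cells (EB3, a mouse ES line, here without the transgene), Nup98-HoxA9 ES clones #1 and #9, and a HoxA9-Ct ES line. The Nup98-HoxA9 clones carry a FLAG-tagged fusion of the Nup98 FG repeats to the C-terminal part of HoxA9, a leukaemia fusion protein, and HoxA9-Ct ES carries the FLAG-tagged C-terminal part alone. Transgenes were delivered with the Tol2 transposon and hygromycin selection, and each transgenic line is a single picked clone. All lines were grown on gelatin with leukaemia inhibitory factor. The comparison asks what the fusion protein changes in ES cells relative to the parental line and relative to the HoxA9 part alone.

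The methionine cycle turns methionine into S-adenosylmethionine, the methyl donor of most methylation reactions, and then into homocysteine. Homocysteine is methylated back to methionine by Mtr with a folate methyl group or, in liver and kidney above all, by Bhmt with betaine as the donor. Betaine loses its remaining methyl groups on the way to glycine, a route that includes Dmgdh, and glycine and serine feed one-carbon units into folate. Mouse ES cells are known to depend on threonine, which Tdh breaks down towards glycine.

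In both Nup98-HoxA9 clones Bhmt, Bhmt2 and Dmgdh were brighter than in parental ES cells, Mat2a, Ahcy and Mtr lay near the parental level, and Gldc was dimmer. With 1.5-fold as the line, 3 members (Bhmt, Bhmt2 and Dmgdh) were higher in both clones, against 3.98% of all named genes. One member, Gldc, was lower in both clones, against 2.39% of all named genes, and 6 members did neither. The contrast is the one on which Bhmt was picked, so nothing is read from these counts. Ratios in these and the following counts are as measured, also where parental ES was not well above background. With every signal raised to the lowest one well above background on its array (the floor), the 3 members were still over 1.5-fold higher in both clones, beside 3.59% of all named genes. No member passed 1.5-fold in HoxA9-Ct ES, where 5.40% of all named genes did. Signals are Agilent processed signals in arbitrary units, and ratios are log2 differences after each array was scaled to its 75th percentile, which ranged from 209 to 253. A probe counts as measured in a line where the Feature Extraction software marks it as well above background. That was so for all 10 members in both clones and for 8 members in all 4 lines.

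**Figure D1:**
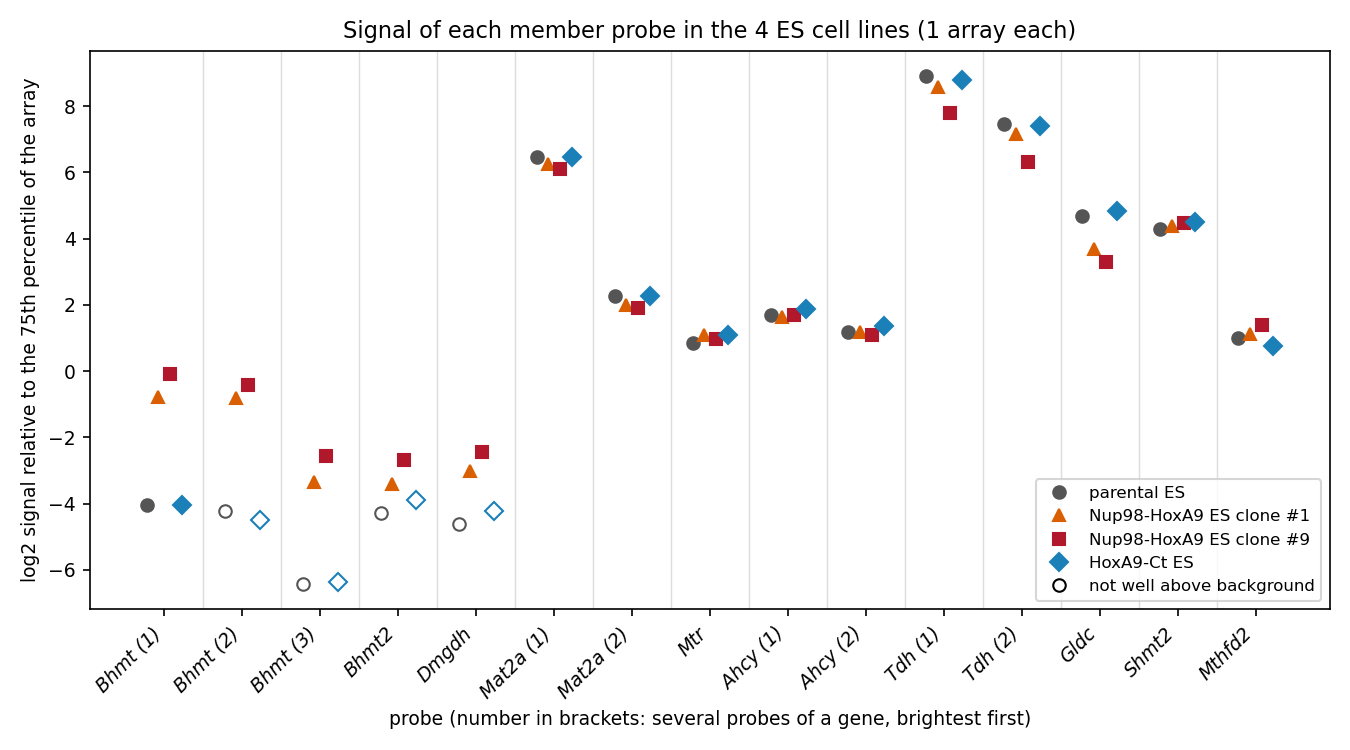
Log2 signal of each of the 15 member probes, with the array's 75th percentile set to 0, in parental ES (circles), Nup98-HoxA9 ES clone #1 (triangles), clone #9 (squares) and HoxA9-Ct ES (diamonds), 1 array each. Open symbols were not well above background. Both clones lie above the other lines at every probe of Bhmt, Bhmt2 and Dmgdh and below them at Gldc, and levels of different probes cannot be set against each other.

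Bhmt encodes betaine-homocysteine methyltransferase. At its brightest probe the signals were 13.8 in parental ES, 128 and 240 in clones #1 and #9, and 12.8 in HoxA9-Ct ES, and all 4 lines were well above background. Both clones lay far above the other lines, which were nearly equal. Those lines were close to the lowest signal well above background on their arrays. On the log2 scale parental ES had -4.06 beside a lowest value of -4.28, and HoxA9-Ct ES had -4.03 beside -4.23. The scaled signal was 9.61 times the parental one in clone #1 and 15.8 times in clone #9, a mean log2 ratio of 3.62 (SD between the clones 0.50, n = 2), and the log2 ratio of HoxA9-Ct ES was 0.02.

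The other probes of Bhmt gave the same order of lines. Signals at the second were 12.4 in parental ES, 128 and 189 in clones #1 and #9, and 9.36 in HoxA9-Ct ES, and at the third they were 2.68, 21.9, 43.0 and 2.55 in the same order. Parental and HoxA9-Ct ES were not well above background at either probe, so the fold is a lower bound. The bound sets the mean of the clones against the higher of the dim line's own signal and the lowest signal well above background on its array. The clones were at least 12.2-fold higher than parental ES at the second probe and at least 2.51-fold higher at the third. Since Bhmt was picked for this rise, its values are a description and carry no test. With the normexp background correction, which adds an offset to every signal, the mean log2 ratio of the brightest probe was 1.68 instead of 3.62. In these bulk samples, a change in the share of cells that express a gene and a change in RNA per cell cannot be told apart.

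The 250 bases before the Bhmt start site are shown because Bhmt changed most of the members and its start is separate from that of its neighbours. They lie at chr13:93637759-93638008 on the minus strand (GRCm38.p6, RefSeq), and capitals mark the letters AGGTCA, a half-site read by many nuclear receptors.

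Bhmt: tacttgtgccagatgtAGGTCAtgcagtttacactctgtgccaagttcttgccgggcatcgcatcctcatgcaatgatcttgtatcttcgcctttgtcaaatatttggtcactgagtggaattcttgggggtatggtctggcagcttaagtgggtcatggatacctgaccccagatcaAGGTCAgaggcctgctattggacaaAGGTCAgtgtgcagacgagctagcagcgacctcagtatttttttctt

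The letters were searched on both strands and occur 3 times, with first bases at -234, -72 and -47 from the start site. Of the 32851 mouse promoter windows of this length, 14.0% hold at least 1 match and 0.131% hold 3 or more. The motif was chosen after the sequence had been read, and a match is neither a bound site nor a cause. The window has 5 CpG dinucleotides, where the median window has 6.

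Bhmt2, the paralogue of Bhmt that uses S-methylmethionine as its methyl donor, had signals of 11.8 in parental ES, 20.9 and 39.3 in clones #1 and #9, and 14.0 in HoxA9-Ct ES. The clones were the brightest lines, and neither parental nor HoxA9-Ct ES was well above background. The bound was at least 2.34-fold over parental ES and at least 1.80-fold over HoxA9-Ct ES. The limma contrast of the clones with HoxA9-Ct ES gave an adjusted p of 1.00. Probe sequences were not used here, so cross-hybridisation between the paralogues was not tested.

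Dmgdh encodes dimethylglycine dehydrogenase, the mitochondrial enzyme that acts on the product of the Bhmt reaction. Its signals were 9.43 in parental ES, 27.2 and 46.9 in clones #1 and #9, and 11.2 in HoxA9-Ct ES. Again both clones stood above the other lines, which were not well above background. The clones were at least 2.92-fold higher than parental ES and at least 2.82-fold higher than HoxA9-Ct ES, and the limma contrast with HoxA9-Ct ES did not pass (adjusted p = 0.243), although it did with the floor (limma, adjusted p = 0.00818). Over all settings that adjusted p of limma ran up to 0.990. With the normexp correction the clones exceeded parental ES by mean log2 ratios of 0.37 for Dmgdh and 0.32 for Bhmt2, below the 1.5-fold line.

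Bhmt2 and Dmgdh start from opposite strands, 134 bases apart on chromosome 13, and the interval between their start sites is shown because both genes were brighter in the same lines. It lies at chr13:93674303-93674435 (GRCm38.p6, RefSeq, plus strand, the strand of Dmgdh), and capitals mark CpG dinucleotides.

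Bhmt2-Dmgdh interval: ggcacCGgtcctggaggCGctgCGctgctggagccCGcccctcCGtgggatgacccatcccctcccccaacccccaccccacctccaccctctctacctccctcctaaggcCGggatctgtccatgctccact

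The interval holds 6 CpG dinucleotides and no AGGTCA on either strand, and 69.9% of its bases are G or C, against 48% in the Bhmt window above. Windows of 250 bases hold 20 CpG dinucleotides before Bhmt2 and 16 before Dmgdh.

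**Figure D2:**
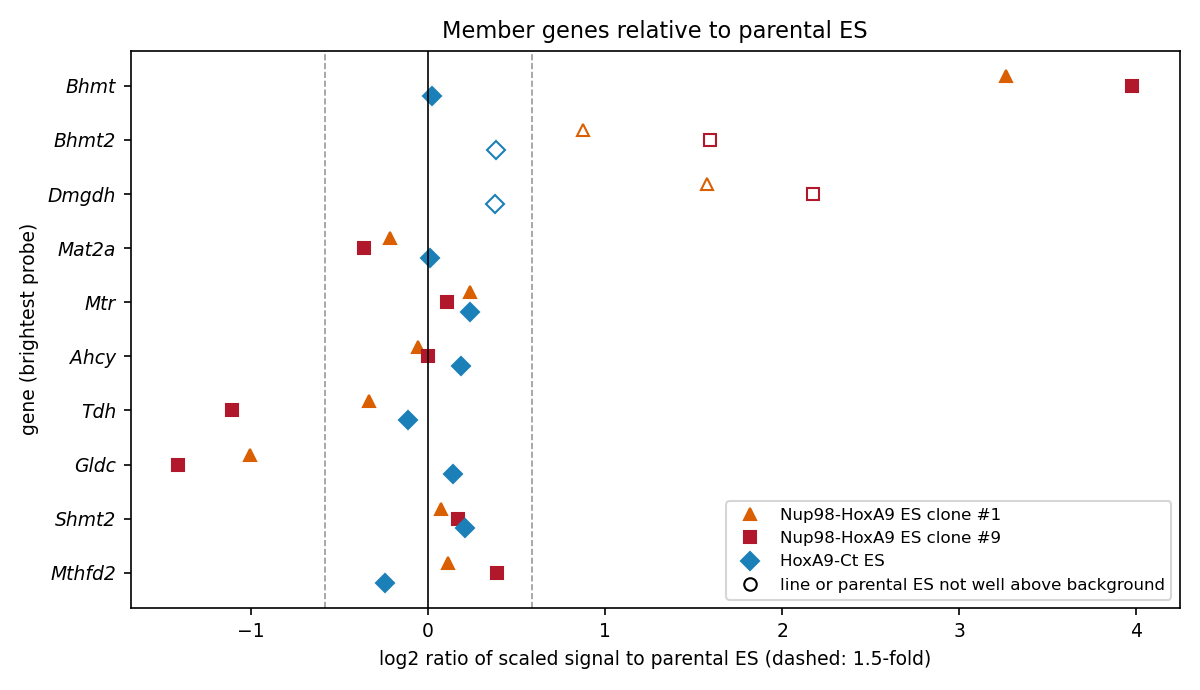
Log2 ratio of scaled signal to parental ES for each member at its brightest probe, in Nup98-HoxA9 ES clone #1 (triangles), clone #9 (squares) and HoxA9-Ct ES (diamonds). Dashed lines mark 1.5-fold, and open symbols mark ratios in which a line was not well above background. Bhmt, Bhmt2 and Dmgdh lie to the right of the dashed line in both clones and Gldc to the left, while every HoxA9-Ct value lies between the lines.

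Bhmt, Bhmt2 and Dmgdh are neighbours on chromosome 13, and the genes around them were read to see how far the difference reached. Of the 10 nearest genes on the array, 5 on each side, 2 were over 1.5-fold higher in both clones by the measured ratio, beside 3.98% of all named genes, and 0 were lower. With the floor 1 was left, Scamp1. Both genes lie on the side of Dmgdh. Lhfpl2, a tetraspan membrane protein, had signals of 4.15 in parental ES, 12.6 and 25.8 in clones #1 and #9, and 2.36 in HoxA9-Ct ES. The clones alone were well above background there, at least 1.0997-fold over parental ES in clone #1 and 1.98-fold in clone #9. The limma call (adjusted p = 0.0188) is for the measured mean log2 ratio of 2.07, which rests on the dim parental signal, and not for the bound. Scamp1, a secretory carrier membrane protein, had signals of 839, 1332, 1399 and 562 in the same order of lines. Measured in every line, it was higher in both clones, at log2 ratios of 0.71 and 0.59, and lower in HoxA9-Ct ES, at -0.45, and limma did not call the clones against parental ES (adjusted p = 1.00).

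Arsb, which lies between Dmgdh and Lhfpl2, could not be read above background in the 4 lines. On the side of Bhmt, the nearest gene Jmy had log2 ratios of 0.28 and 0.31 in the clones and of 0.45 in HoxA9-Ct ES, so the clones were not the highest line. Farther out, Homer1, Tent2, Ap3b1 and Tbca had log2 ratios between -0.09 and 0.40, Cmya5 had -0.41 and -0.94 in the clones, and Gm4814 was not well above background anywhere. The 449 genes of chromosome 13 measured in all lines had medians of -0.05 and -0.12 in the clones on the log2 scale. Mtr, the other member on chromosome 13, is described below with the methionine cycle.

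**Figure D3:**
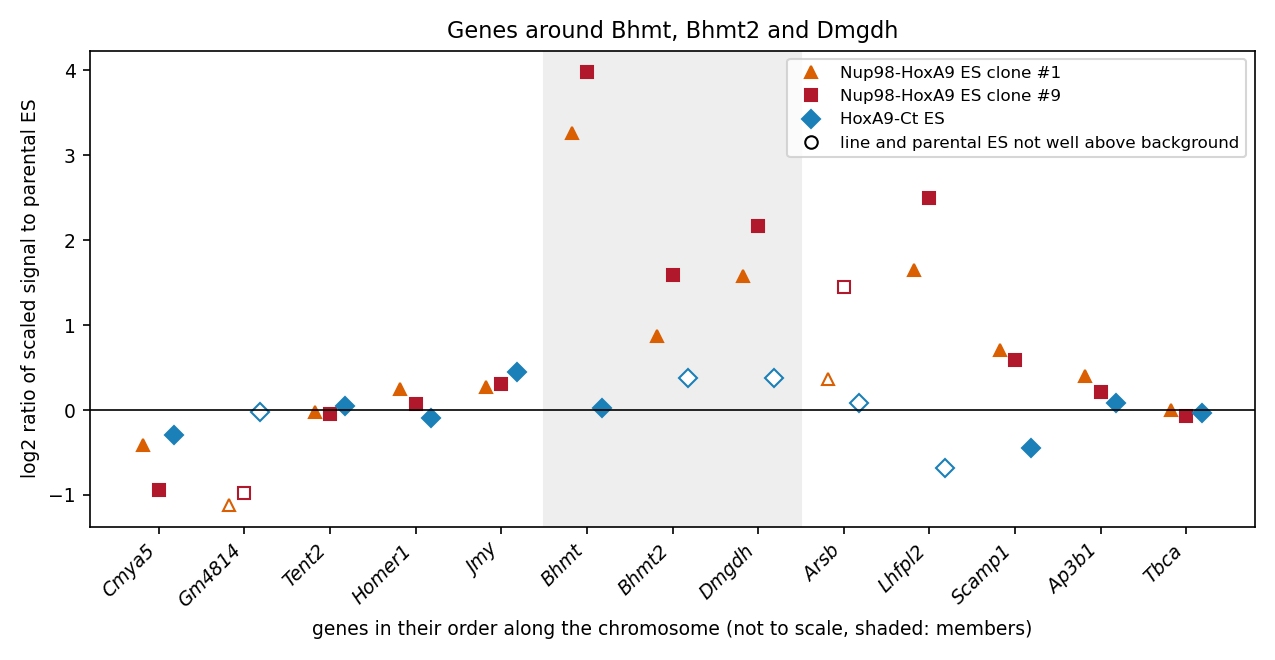
Log2 ratio of scaled signal to parental ES for Bhmt, Bhmt2 and Dmgdh (shaded) and 5 genes on each side, in the order of the genes along chromosome 13 and not to scale. Triangles are clone #1, squares clone #9 and diamonds HoxA9-Ct ES, and open symbols mark ratios in which neither line was well above background. In the clones the members, Lhfpl2 and Scamp1 lie above 0.5, and Arsb, not well above background in any line, lies at 0.37 and 1.45. Jmy, next to Bhmt, and Ap3b1, next to Scamp1, lie below 0.5.

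The enzymes that every cell uses for the methionine cycle stayed within 1.5-fold of parental ES in all lines. Mat2a, which makes S-adenosylmethionine, had signals of 20214 in parental ES, 16867 and 17369 in clones #1 and #9, and 18551 in HoxA9-Ct ES. Both clones were slightly lower, at log2 ratios of -0.22 and -0.36, and the second probe gave -0.26 and -0.35. Ahcy, which clears S-adenosylhomocysteine, had signals of 743, 691, 820 and 772 in the same order, with log2 ratios of -0.06 and 0.00 in the clones and 0.19 in HoxA9-Ct ES. Mtr, the folate-dependent methionine synthase, had signals of 414, 474, 493 and 445, with log2 ratios of 0.24, 0.11 and 0.24. For these 3 genes the mean ratio of the clones was smaller than its pooled limma standard error of 0.56. The ratio of HoxA9-Ct ES was smaller than its own of 0.64. These errors are the same for all probes, dim ones included, and do not measure how stable these genes are.

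In the threonine and glycine branch the clones were dimmer at Tdh and Gldc and differed from each other at Tdh. Gldc, the decarboxylase of the glycine cleavage system, had signals of 5941 in parental ES, 2870 and 2466 in clones #1 and #9, and 5968 in HoxA9-Ct ES. The clones lay well below the other lines, at 49.8% and 37.6% of the scaled parental signal, while HoxA9-Ct ES had a log2 ratio of 0.14. Against HoxA9-Ct ES the clones differed by -1.35 on the log2 scale, which limma did not call with 1 spread for all probes (adjusted p = 0.387). The call depended on the setting: the adjusted p of that contrast in limma was 6.43e-07 with the trend and robust options, 4.04e-06 with normexp and 0.0293 with the floor, and its highest value was 0.598.

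Tdh, threonine dehydrogenase, had signals of 109884 in parental ES, 84555 and 56278 in clones #1 and #9, and 92803 in HoxA9-Ct ES. Clone #9 was at 46.4% of the scaled parental signal and clone #1 at 79.4%, so only clone #9 passed 1.5-fold. The second probe gave log2 ratios of -0.31 and -1.16 in the clones and -0.07 in HoxA9-Ct ES. The clones differed from each other by 0.77 at the brightest probe, while 95% of the 8020 bright probes (mean log2 scaled signal over 2) differed by less than 0.50.

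Shmt2 and Mthfd2, both mitochondrial folate enzymes, stayed within 1.5-fold of parental ES. Shmt2, which passes a one-carbon unit from serine to folate, had signals of 4500 in parental ES, 4592 and 5580 in clones #1 and #9, and 4752 in HoxA9-Ct ES, with log2 ratios of 0.07, 0.17 and 0.21. Mthfd2, which oxidises the folate carrier in the next step, had signals of 460, 482, 664 and 354, with log2 ratios of 0.11, 0.39 and -0.25. Neither gene differed from parental ES beyond the pooled standard error, which is the same for all probes and does not measure their own spread.

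Over all 10 members the median log2 ratio to parental ES was 0.09 and 0.14 in clones #1 and #9 and 0.16 in HoxA9-Ct ES, although parental and HoxA9-Ct ES did not measure 2 of them. Over the 8 members measured in all lines it was 0.01, 0.05 and 0.08, and over the 12553 named genes measured in all lines it was -0.01, -0.06 and 0.00. At an adjusted p of 0.05, limma called 1 member in the clones against parental ES (Bhmt, with 1.70% of all named genes called) and 1 in the clones against HoxA9-Ct ES (again Bhmt, with 1.53% called). It called 0 members in HoxA9-Ct ES against parental ES, where 0.341% of named genes were called and 0 members had an unadjusted p under 0.05. These contrasts share arrays, and the contrasts with the clones include the signals on which Bhmt was picked. With quantile normalization, or after dropping probes that no array measured, the counts of 1 became 0.

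Other genes of the pathway, 58 in 5 lists, were read at their brightest probe to see which of them moved with the members, and 57 had a probe with a RefSeq match. Of these, 4 were over 1.5-fold higher in both clones by the measured ratio, 0 were lower and 53 did neither, beside the shares of all genes given above. With the floor 2 of the 4 were left, Slc6a12 and Srr, which is 3.51% of the 57, beside 3.59% of all named genes. In HoxA9-Ct ES 3 of the 57 were higher and 0 lower, beside 5.40% of all named genes past 1.5-fold there in either direction. By list, 2 of 6 genes of betaine and choline metabolism, 1 of 19 of the folate cycle and 1 of 12 of serine, glycine and threonine metabolism were higher in both clones, and 0 of 14 of methionine and S-adenosylmethionine metabolism and 0 of 6 of transsulfuration. Against HoxA9-Ct ES, limma called 0 of the 57 in the clones, beside 1.53% of all named genes. Against parental ES it called 2, beside 1.70% of all named genes, and both were in the betaine and choline list. Of the other genes of that list, Aldh7a1 and Pipox had log2 ratios of -0.12 and -0.21 in clone #1 and of -0.22 and -0.42 in clone #9, Slc44a1 had 0.38 and 0.02, and Sardh was measured in clone #9 only.

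Slc6a12, a betaine transporter of the cell membrane, had signals of 6.72 in parental ES, 49.7 and 132 in clones #1 and #9, and 68.2 in HoxA9-Ct ES. Parental ES alone was not well above background, and all transgenic lines stood above it. The adjusted p-values of limma given next are for the measured log2 ratios, 3.54 in the clones and 3.48 in HoxA9-Ct ES. These ratios rest on the dim parental signal, and the bounds themselves were not tested. The clones were at least 6.61-fold higher (limma, adjusted p = 1.07e-07) and HoxA9-Ct ES at least 6.32-fold higher (adjusted p = 5.49e-05). Chdh, choline dehydrogenase, which makes the precursor of betaine, had signals of 2.48, 13.6, 22.8 and 10.8 in the same order and was well above background in the clones only. The bound over parental ES was only 1.18-fold in clone #1 and 1.75-fold in clone #9. The limma call (adjusted p = 1.41e-04) is for the measured mean log2 ratio of 2.78 and not for this bound. The other 2 probes of Chdh were not well above background in any line.

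Aldh1l2, a mitochondrial formyl-folate dehydrogenase, had signals of 5.19 in parental ES, 15.5 and 23.9 in clones #1 and #9, and 11.6 in HoxA9-Ct ES. It too was below the parental detection limit and measured in every transgenic line, at least 1.35-fold higher in clone #1, 1.83-fold in clone #9 and 1.07-fold in HoxA9-Ct ES. Srr, serine racemase, had log2 ratios of 0.76 and 0.88 in the clones and 0.28 in HoxA9-Ct ES. Gnmt, which uses S-adenosylmethionine to methylate glycine, passed 1.5-fold in HoxA9-Ct ES alone, at 0.68 beside 0.54 and 0.31 in the clones. At Slc6a12, HoxA9-Ct ES was thus above parental ES as well, and at Aldh1l2 by a bound of only 1.07-fold. At Chdh its log2 ratio was 2.25, with neither of these lines well above background, and at Bhmt it was 0.02.

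**Figure D4:**
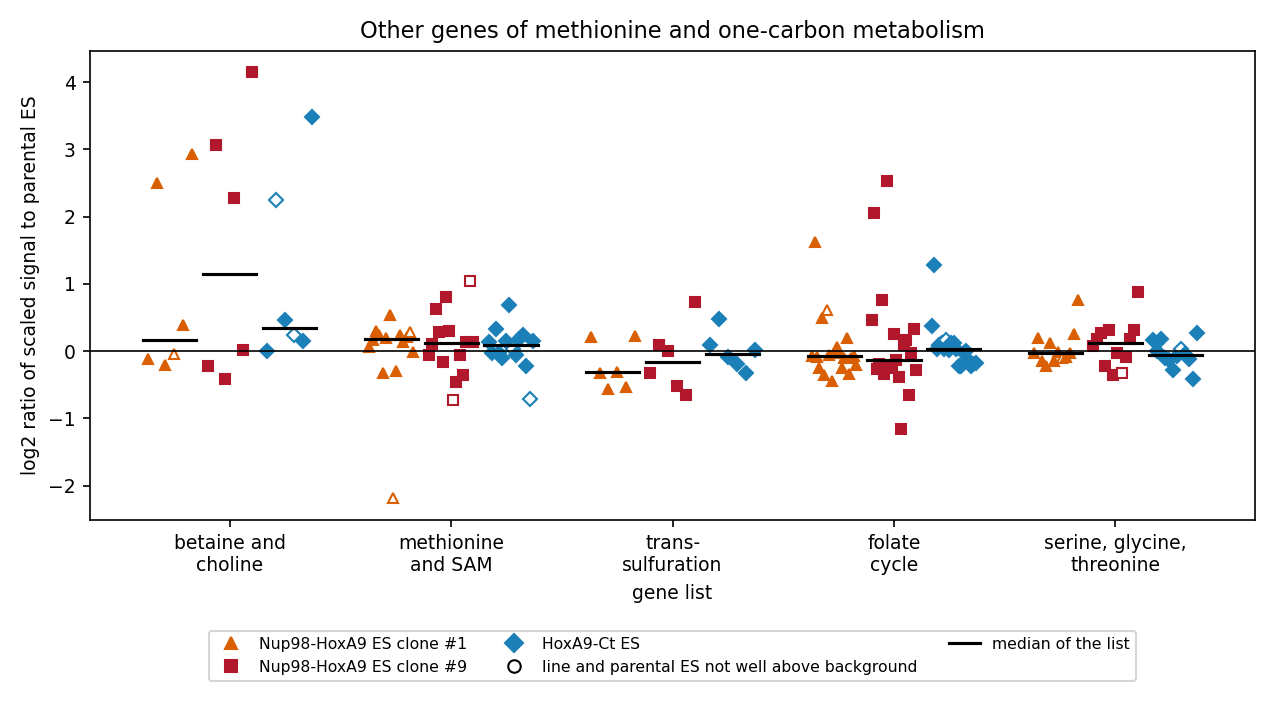
Log2 ratio of scaled signal to parental ES for the 57 other pathway genes in 5 lists, with triangles for clone #1, squares for clone #9, diamonds for HoxA9-Ct ES and a bar at the median of each list. Open symbols mark ratios in which neither line was well above background. The highest values in the betaine and choline list are those of Slc6a12, at 2.93, 4.15 and 3.48. The medians of that list are 0.17, 1.15 and 0.34 in the order of the symbols, and those of the other lists lie between -0.32 and 0.18.

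The label ES cell was checked against 10 markers of pluripotent ES cells, all of which were well above background in all lines, and 0 of them passed 1.5-fold in both clones or in HoxA9-Ct ES. Some markers of other cell types were, like Bhmt, Bhmt2 and Dmgdh, higher in the clones. Of 8 primitive endoderm markers, 7 were over 1.5-fold higher in both clones and 6 were lower in HoxA9-Ct ES, with median log2 ratios of 1.65 and 2.01 in the clones and of -1.27 in HoxA9-Ct ES. Their summed scaled signal, in units of the 75th percentile, was 34.7 in parental ES, 42.0 and 39.9 in the clones and 16.6 in HoxA9-Ct ES, most of it from Lama1. The other 7 markers summed to 1.13 in parental ES, 3.88 and 4.88 in the clones and 0.54 in HoxA9-Ct ES.

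Of 9 markers of visceral endoderm and liver, 2 (Amn and Hnf4a) were higher in both clones, beside 3.98% of all named genes. The summed signal was 2.33 in parental ES, 3.36 and 6.74 in clones #1 and #9, and 2.34 in HoxA9-Ct ES. Without Rbp4, the brightest of them, it was 1.69, 2.42, 4.94 and 1.03 in the same order. Alb, Apob, Apoa1, Ttr and Afp were not well above background in any line at the probe read. Amn, Hnf4a, Rbp4 and Cubn were measured in every line, and Rbp4 had log2 ratios of 0.55 and 1.48 and Cubn of 0.28 and 0.99 in the clones. In HoxA9-Ct ES the log2 ratio was 1.03 for Rbp4 and -1.09 for Cubn. Of 7 trophectoderm markers 2 were higher in both clones, and of 6 fibroblast markers 1, again beside 3.98% of all named genes. Summed signals in the order of lines above were 8.48, 13.4, 13.5 and 7.06 for trophectoderm and 7.81, 9.58, 17.9 and 10.7 for fibroblasts. Without their brightest genes, Tfap2c and Thy1, the sums were 1.33, 3.53, 5.39 and 1.94 for trophectoderm and 0.41, 0.50, 1.20 and 0.41 for fibroblasts. The part of these cell types in the Bhmt, Bhmt2 and Dmgdh values was not tested. Hoxa9, which the paper lists among the genes upregulated in both clones, had signals of 341 in clone #1 and 409 in clone #9 at its brighter probe. It had no signal well above background at either probe in the other lines, HoxA9-Ct ES included. Whether the probes read the transgene or the endogenous gene was not tested, so they check only the labels of the clones. Whether the brighter probe lies in the part that HoxA9-Ct ES carries was not tested.

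**Figure D5:**
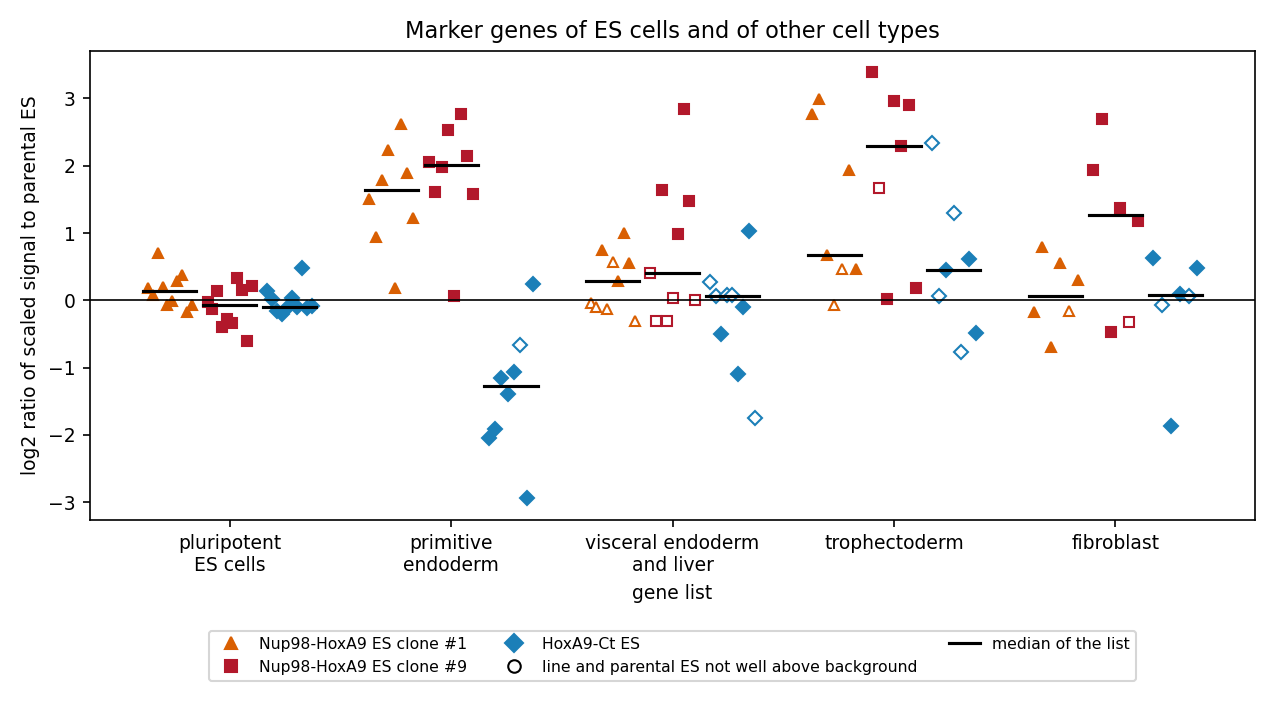
Log2 ratio of scaled signal to parental ES for markers of ES cells and of 4 other cell types, with triangles for clone #1, squares for clone #9, diamonds for HoxA9-Ct ES and a bar at the median of each list. Open symbols mark ratios in which neither line was well above background. The primitive endoderm list has medians of 1.65 and 2.01 in the clones and -1.27 in HoxA9-Ct ES, while the medians of the ES cell list lie between -0.09 and 0.14.

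The genes most like Bhmt were sought among the 595 probes (1.07% of all) that, as its second probe, were well above background in both clones and in neither other line. Likeness was the root of the summed squared differences in log2 scaled signal on the clone arrays, which sets different probes side by side and so compares brightness, not transcript number. The nearest named genes were Hoxa6, at a distance of 0.54, Hoxa4, at 0.71, Hoxb4, at 0.78, Pmp22, at 0.96, and Adgra2, at 1.04. That all of them are high in the clones alone is fixed by this choice of probes.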

How the data were processed

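RNA of 4 ES cell lines was labelled with Cy3 and hybridised to Agilent SurePrint G3 mouse arrays on 1 slide, and the authors extracted the images with Feature Extraction 10.10.1.1. The deposited values are processed signal intensities, background-subtracted by that software. The members and all gene lists were chosen with earlier results of these data known. Here log2 intensities were set against the 75th percentile of each array's 59305 non-control spots, outlier spots were left out and spots of a probe averaged. Each gene was read at its brightest probe, and probes were named through RefSeq transcripts (26721 of 55562). The share of spots well above background ran from 49.9% to 53.0%. The median SD between spots of a probe was 0.11 to 0.12, over the 399 probes printed 10 times or more. All 15 member probes had a single spot, so their values are not averages. limma 3.58.1 in R 4.3.3 fitted 3 group means with Benjamini-Hochberg adjustment over all probes. The clones are the only replicates (1 residual degree of freedom), so the single lines are assumed to vary like the clones. At the main setting limma gave every probe the same SD, 0.454 on the log2 scale, and treated it as known. The p-values of that setting thus hold no spread of the single probe. The pathway lists held betaine and choline, methionine and S-adenosylmethionine, transsulfuration, folate, and serine, glycine and threonine genes. Named genes were the members, pathway genes past 1.5-fold in both clones or in HoxA9-Ct ES, 5 genes on each side of Bhmt and Dmgdh, and the 5 probes most like Bhmt. Alternatives were normexp background correction (offset 50, on median signals), quantile or median scaling, a floor at each array's detection limit, leaving out probes that no array measured, the deposited series matrix values, gene means, limma with trend and robust options, and each clone alone.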

Additional observations from a re-analysis of the deposited data

Results flagged for a closer look

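Gldc and Scamp1 had ratios of opposite sign in the clones and in HoxA9-Ct ES. This is not particular to them. The mean clone ratios of Mat2a, Ahcy and Mthfd2 were also opposite in sign to HoxA9-Ct ES, by smaller differences, as were those of several primitive endoderm markers. In log2 units, with parental ES as the base, the clones minus HoxA9-Ct ES gave -1.35 for Gldc, and limma did not call this contrast (adjusted p = 0.387). The Gldc ratio of HoxA9-Ct ES itself, 0.14, was about the median absolute ratio of that line over all probes measured in every line (0.14), and it was 0.07 with median scaling. For Scamp1 the difference was 1.098 (adjusted p = 0.7502 in limma).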

How the results depend on the processing

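The mean log2 ratio of Bhmt was 1.68 with normexp and stayed within its spread at all other settings, and it ran from 3.26 to 3.98 with 1 clone left out. The count of members called by limma in the clones against parental ES was 2 with normexp, 2 with the floor, 4 with trend and robust options, and 0 with quantile normalization and without the probes that no array measured. Against HoxA9-Ct ES the count was 2 with normexp, 3 with the floor, 2 with trend and robust options, and 0 in the same pair of settings. HoxA9-Ct ES against parental ES had 0 at every setting. The share of all named genes called was taken at the main setting only, so nothing is read from the counts at the other settings. The median member ratio was 0.19 with quantile normalization and 0.21 with the series matrix values, and ran from 0.0933 to 0.138 with 1 clone left out. The 4 pathway genes past 1.5-fold became 1 with normexp and 2 with the floor, and ran from 4 to 13 with 1 clone left out (13 without clone #1). The cause of these shifts was not tested. Of the members, Ahcy alone changed sign between settings, from -0.05 to 0.04. Leaving out a clone leaves limma no residual degrees of freedom, so the counts of limma were not run that way. No paired analysis was possible because each line is 1 array and only the clones carry numbers. Signals near background limit Bhmt2, Dmgdh, Chdh and Aldh1l2 to lower bounds.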
